A study of Rattus norvegicus with 18 samples.

Results

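The 8 genes Phgdh, Psat1, Psph, Shmt2, Mthfd2, Asns, Aldh18a1 and Pycr1 encode enzymes that make serine, mitochondrial one-carbon units, asparagine and proline. They were taken by name from the annotation of the probe sets, as 8 of the 14506 genes to which a probe set was assigned alone, and each gene was read from its brightest probe set. The annotation gave them 10 probe sets, with a pair each for Mthfd2 and Psat1. The genes were chosen with earlier results of these data known. Retinal RNA of 18 adult Sprague Dawley rats, aged P80 to P120 and reared in 5 lux cyclic light, was read on Affymetrix rat Gene 1.0 ST arrays, 3 arrays in each of 6 groups. Control animals had no pretreatment and no damaging light. The saffron group was fed saffron at 1 mg/kg per day for 3 weeks, and the PBM group had photobiomodulation, 670 nm red light for 3 min a day on 5 days at a labelled dose of 10 J/cm2. The LD group had 24 h of damaging bright light, and the SafLD and PBMLD groups had the same exposure after saffron or PBM. The sample descriptions give 1000 lux for all 3 light-exposed groups, but the LD arrays are entered at 100 lux under source name. Pretreatment and light exposure overlapped on the last day, so that the SafLD and PBMLD retinas were collected as the exposure ended. Control animals were fed the vegetable matrix that carried the saffron. Each group held both sexes, and the sex of the animal behind each array was not given in the labels. The study asked which genes follow light damage and which follow the pretreatments given to protect photoreceptors.

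Serine is built from a glycolytic intermediate in 3 steps, by Phgdh, Psat1 and Psph. Shmt2 then splits serine in the mitochondrion into glycine and a one-carbon unit carried on folate, and Mthfd2 oxidises that unit on the way to formate, which serves purine and thymidylate synthesis. Asns makes asparagine from aspartate and glutamine, and Aldh18a1 and Pycr1 catalyse the first and the last step from glutamate to proline. Many of these genes are known targets of ATF4, the transcription factor of the integrated stress response, and in the retina serine synthesis is known as a task mainly of Müller glia. ATF4 binds with C/EBP proteins at elements of the form TGATGNAA.

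The promoters of 7 of the 8 genes were present in the RefSeq sequences used here (build GRCr8), and none was found there under the name Aldh18a1. In the 250 bases before the annotated start, searched on both strands, TGATGNAA was found in 1 of 7 promoters (Pycr1) and the shorter form GATGNAA, which lies within it, in 2 of 7 (Pycr1 and Psat1). Across 33465 rat promoters of the same length, 3.4% held TGATGNAA and 10.2% held GATGNAA. The CCAAT box was found in 4 of 7, against 34% of all promoters. The last 150 bases before the start are shown for both genes with a match to GATGNAA and for Asns, the member with the most significant rise, 5′ to 3′ along the gene. Capitals mark matches to TGATGNAA or GATGNAA only (in Psat1 the reverse complement), and CCAAT boxes are left in lower case. A match is a run of letters in the window and says nothing of binding. Only the first listed start of each gene was read, so an element near another start or outside the window would not be seen.
Asns (chr4:36769416-36769565, minus strand): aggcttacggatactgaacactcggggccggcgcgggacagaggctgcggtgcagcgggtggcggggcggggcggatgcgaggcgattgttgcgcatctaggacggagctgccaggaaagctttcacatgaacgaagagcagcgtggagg
Pycr1 (chr10:106420813-106420962, minus strand): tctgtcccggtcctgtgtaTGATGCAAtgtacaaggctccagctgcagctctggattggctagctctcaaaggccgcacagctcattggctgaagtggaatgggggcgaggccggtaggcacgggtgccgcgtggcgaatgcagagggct
Psat1 (chr1:222645409-222645558, minus strand): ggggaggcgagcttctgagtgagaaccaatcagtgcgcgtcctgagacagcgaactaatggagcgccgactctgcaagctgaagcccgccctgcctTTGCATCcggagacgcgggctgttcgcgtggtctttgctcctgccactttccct

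The arrays had been brought to a common scale, with array medians of 6.12 to 6.19 log2 units. Taken over all probe sets, 11 of the 18 arrays were closest to an array of their own group. The array PBMLD 2 had the lowest estimated array weight (0.267, against up to 2.00), and lens gene levels differed between arrays of a group, as given with the cell markers. Pycr1 was the 1 member with a mean level below the median of all values (6.15). Levels below are log2 intensities and differences are log2 differences of group means ± SE. A difference passed where limma's adjusted p, taken over all 29214 probe sets and from a fit of all 18 arrays, was below 0.05. The numbering of arrays within groups was used in the main fit only to name them.

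Asparagine synthetase (Asns), the mitochondrial folate enzyme Mthfd2 and Aldh18a1 were higher in every light-exposed group. Asns stood at 8.40, 8.29 and 8.003 in control retinas, at 8.39, 8.17 and 8.35 after saffron and at 8.24, 8.18 and 8.13 after PBM. In the LD arrays it stood at 10.23, 10.05 and 10.14, in the SafLD arrays at 10.08, 10.21 and 10.24 and in the PBMLD arrays at 10.17, 9.85 and 10.20. The lowest light-exposed array lay more than 1 log2 unit above the highest unexposed array, and the 3 light-exposed groups overlapped each other. Taken over the 9 light-exposed and 9 unexposed arrays, Asns was higher by 1.89±0.07 (3.71-fold, limma adjusted p = 1.5e-10), and it had the smallest p of all 29214 probe sets.

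Mthfd2 followed the same course. Its levels were 7.05, 7.08 and 7.24 in control, 7.09, 7.11 and 6.86 in saffron, and 7.05, 7.30 and 7.39 in PBM retinas. They were 9.03, 8.73 and 8.63 in LD, 9.22, 9.13 and 9.30 in SafLD, and 8.75, 8.87 and 8.45 in PBMLD retinas. Again no light-exposed array overlapped an unexposed one. The 3 SafLD arrays lay above every LD and PBMLD array, but the share of all probe sets with that order was not read. The difference of Mthfd2 between SafLD and LD did not pass (limma adjusted p = 0.303). The pooled difference was 1.77±0.08 (3.41-fold, limma adjusted p = 6.7e-10), and it had the third smallest p of the array. The other probe set of Mthfd2 gave 2.09±0.10 (4.27-fold).

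Aldh18a1, the bifunctional enzyme that turns glutamate into the precursor of proline and ornithine, was at 8.07, 8.20 and 8.17 in control, 8.21, 8.05 and 8.53 in saffron, and 8.23, 8.32 and 8.29 in PBM retinas. Light-exposed retinas had 9.40, 9.32 and 9.24 (LD), 9.56, 9.63 and 9.56 (SafLD) and 9.33, 8.80 and 9.40 (PBMLD). These ranges did not overlap either, and PBMLD 2 was the lowest of the light-exposed arrays. The pooled difference was 1.13±0.09 (2.19-fold, limma adjusted p = 2.5e-07).

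**Figure D1:**
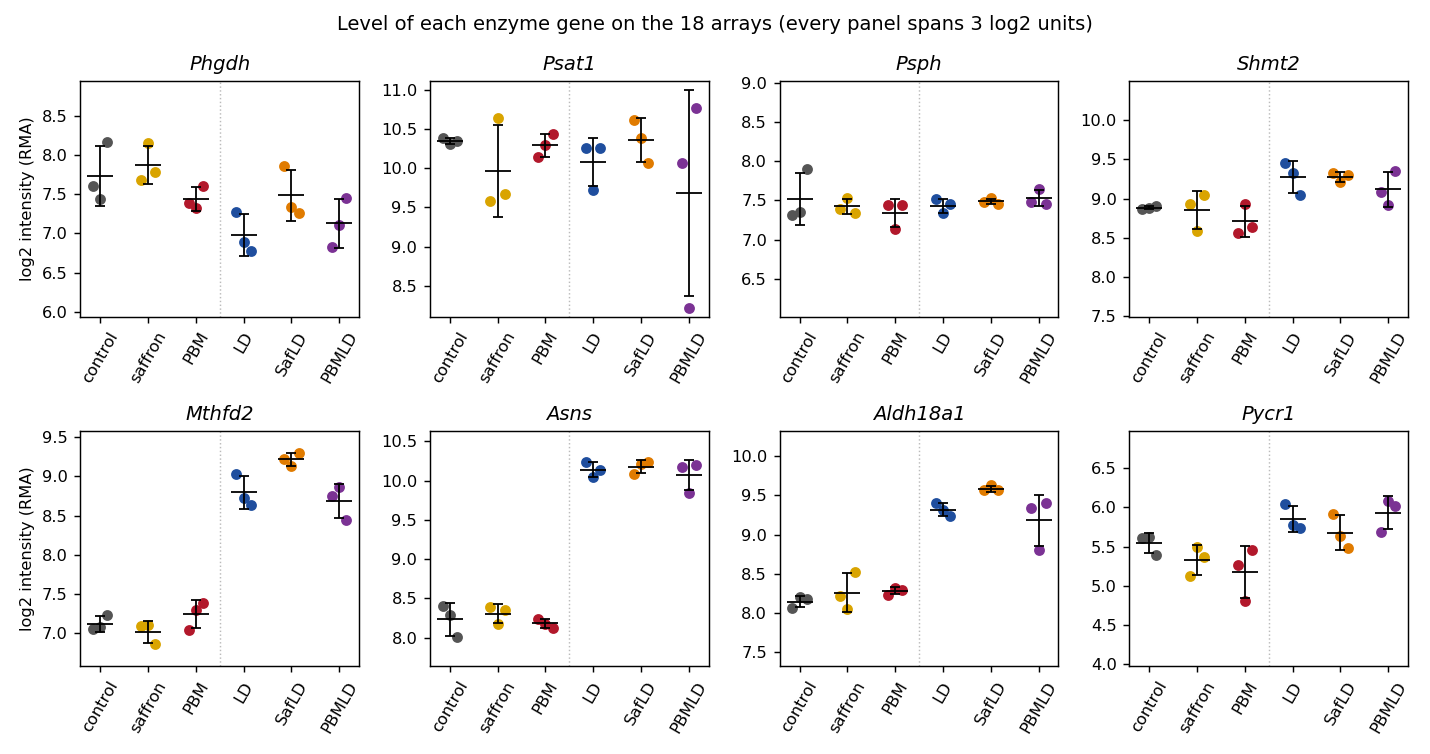
Log2 intensity of each of the 8 genes on the 18 arrays, by group, with each point an array, the long bar the group mean and the error bar 1 SD of the 3 arrays; all panels span 3 log2 units, and a dotted line parts the unexposed from the light-exposed groups. In Mthfd2, Asns and Aldh18a1 the light-exposed arrays lie wholly above the others, and in Psat1 the array PBMLD 2 lies far below the rest.

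Over all light-exposed against all unexposed arrays, 6 of the 8 genes passed, 5 of them higher and 1 lower. Of all probe sets, 2.83% passed as higher and 2% as lower in that comparison. The 3 genes that were also more than 2-fold higher compare with 0.377% of probe sets, and the same 3 genes, whose 9 light-exposed arrays all lay above the 9 unexposed arrays, compare with 0.633%. The median difference of the 8 genes was 0.44, against -0.01 over all probe sets. This comparison adds together 3 exposures that differ in pretreatment. The 8 genes were chosen with earlier results of these data known. The paper also lists Asns, Mthfd2 and Aldh18a1 (as Pycs) as regulated in each light-exposed group. The shares above therefore describe the 8 genes and do not test them.

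The smaller rises were in Shmt2 and Pycr1. Shmt2, the mitochondrial serine hydroxymethyltransferase, ranged from 8.57 to 9.04 on unexposed arrays (median 8.88) and from 8.92 to 9.45 on light-exposed arrays (median 9.30). The ranges overlapped, and the pooled difference was 0.41±0.09 (1.32-fold, limma adjusted p = 0.00909). Pycr1, which reduces pyrroline-5-carboxylate to proline in the mitochondrion, ranged from 4.81 to 5.62 (median 5.40) and from 5.48 to 6.08 (median 5.78). It differed by 0.47±0.10 (1.39-fold, limma adjusted p = 0.00873), with the lowest value in PBM 2.

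None of the 3 genes that make serine passed as higher in the pooled comparison, where 2.83% of all probe sets did. Phgdh, the dehydrogenase of its first step, stood at 7.60, 7.43 and 8.16 in control, 7.68, 8.15 and 7.78 in saffron, and 7.38, 7.32 and 7.61 in PBM retinas. It stood at 7.28, 6.89 and 6.77 in LD, 7.86, 7.34 and 7.26 in SafLD, and 6.83, 7.11 and 7.45 in PBMLD retinas. The 3 LD arrays lay below all unexposed arrays, the nearest at 7.28 against 7.32, while SafLD and PBMLD arrays overlapped the unexposed ones. The share of all probe sets with that order was not read. Phgdh did not pass in LD against control, nor in SafLD or PBMLD against LD. The pooled difference was -0.48±0.12 (1.40-fold lower, limma adjusted p = 0.0322). This call was lost when any 1 of 9 arrays was left out (control 3, PBM 1, PBM 3, saffron 2, LD 2, LD 3, PBMLD 1, SafLD 2 or SafLD 3), with adjusted p of 0.0145 to 0.0776 over all 18 omissions. In whole retina, fewer cells of a type and less RNA per cell cannot be told apart.

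Psat1, the aminotransferase of the second step, was the most variable member. It stood at 10.38, 10.31 and 10.34 in control, 9.59, 10.64 and 9.66 in saffron, and 10.14, 10.30 and 10.44 in PBM retinas. In light-exposed retinas it stood at 10.26, 9.72 and 10.25 (LD), 10.62, 10.38 and 10.06 (SafLD) and 10.06, 8.22 and 10.77 (PBMLD). The PBMLD group held both the lowest and the highest value of the series. Its SD between arrays of a group was 0.616, higher than that of 98.5% of probe sets (median 0.203). The second probe set of Psat1 was likewise lowest on PBMLD 2, at 5.52, against 6.88 and 7.48 on the other PBMLD arrays. The pooled difference of Psat1 was -0.16±0.25 (limma adjusted p = 0.838), with a 95% interval of -0.69 to 0.36, so that a change of either sign within it could not be seen. Its sign turned without PBMLD 2 (0.08), and single omissions gave -0.34 to 0.08.

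Psph, the phosphatase that releases serine, ranged from 7.14 to 7.90 on unexposed and from 7.34 to 7.65 on light-exposed arrays. Its pooled difference was 0.06±0.08 (limma adjusted p = 0.834, 95% interval -0.12 to 0.23). The interval excludes a rise of the size seen in Shmt2.

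Each light-exposed group was then set against the unexposed group with the same pretreatment. In LD against control, 3 of 8 genes passed, all higher, against 0.839% of all probe sets higher. Asns was higher by 1.91±0.13 (limma adjusted p = 9.9e-07), Mthfd2 by 1.67±0.14 (limma adjusted p = 8.1e-06) and Aldh18a1 by 1.17±0.15 (limma adjusted p = 3.9e-04). Phgdh differed by -0.75±0.22 (limma adjusted p = 0.136), Shmt2 by 0.39±0.15 (0.362) and Pycr1 by 0.31±0.17 (0.614), none of which passed.

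In SafLD against saffron the same 3 genes passed, against 1.14% of probe sets higher. Mthfd2 was higher by 2.20±0.14 (4.58-fold, limma adjusted p = 4.6e-07) and had the smallest p of all probe sets, and Asns, with the next smallest, was higher by 1.87±0.13 (3.66-fold). Aldh18a1 was higher by 1.32±0.15 (2.50-fold, limma adjusted p = 4.6e-05). In PBMLD against PBM they passed again, against 0.205% of probe sets higher. Asns was higher by 1.89±0.13 (3.71-fold, limma adjusted p = 1.1e-06), Mthfd2 by 1.44±0.14 (2.72-fold, limma adjusted p = 7.8e-05) and Aldh18a1 by 0.90±0.15 (1.86-fold, limma adjusted p = 0.00942). The Aldh18a1 call was lost without PBM 1, PBM 3 or PBMLD 3, with adjusted p of up to 0.0635 and differences of 0.78 to 1.09 over all omissions. Pycr1 differed by 0.75±0.17 there (limma adjusted p = 0.0838). These 3 comparisons share no array with one another.

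**Figure D2:**
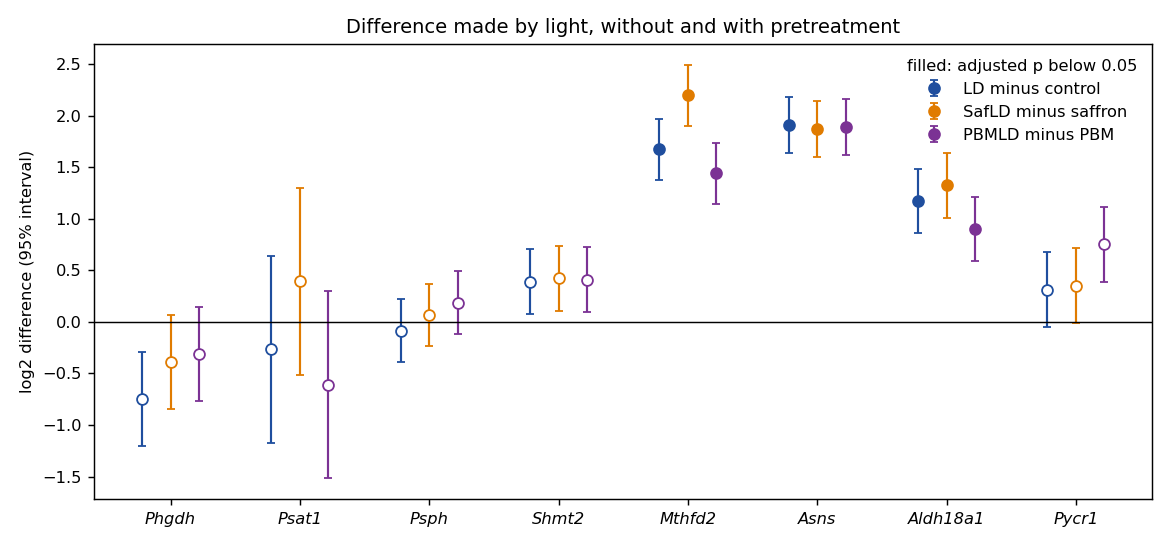
Log2 difference of each gene between light-exposed and unexposed retinas, for LD minus control, SafLD minus saffron and PBMLD minus PBM, with 95% intervals from the fit of all 18 arrays; filled points have an adjusted p below 0.05. Asns lies at 1.91, 1.87 and 1.89 in the 3 comparisons, Mthfd2 spreads from 1.44 to 2.20, and the intervals of Psat1 and Psph cross 0 in each.

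Against the untreated control, which LD shares, 3 of 8 genes were higher in PBMLD (0.325% of probe sets) and 3 of 8 in SafLD (1.45% of probe sets). Asns was higher than in control by 1.84±0.13 in PBMLD and by 1.95±0.13 in SafLD. Mthfd2 was higher by 1.56±0.14 and 2.09±0.14, and Aldh18a1 by 1.03±0.15 and 1.44±0.15. The estimates of all 3 thus lay above 2-fold in both groups, but that of Aldh18a1 in PBMLD (1.03±0.15) lay within 1 SE of this limit.

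Without damaging light, no gene of the 8 passed for either pretreatment, where few of any 8 genes would pass. For PBM against control, 0 of 8 passed and 0.154% of probe sets passed in either direction. At an unadjusted p below 0.05 stood 1 of 8 genes (Pycr1 at -0.36±0.17) and 2909 of all probe sets. For saffron against control 0 of 8 passed in limma, with 0 at an unadjusted p below 0.05, and 0% of probe sets passed, while 1343 had an unadjusted p below 0.05. The 95% intervals for Asns were -0.32 to 0.22 after PBM and -0.20 to 0.34 after saffron, and those for Mthfd2 were -0.17 to 0.42 and -0.40 to 0.19.

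Among light-exposed retinas, too, no gene of the 8 passed for either pretreatment, and few of any 8 genes would pass. In PBMLD against LD, 0 of 8 genes passed in limma, against 0.284% of probe sets. At an unadjusted p below 0.05 stood 0 of 8 genes and 3360 of all probe sets. Asns differed by -0.07±0.13 (95% interval -0.34 to 0.20) and Mthfd2 by -0.11±0.14 (-0.41 to 0.19). In SafLD against LD, 0 of 8 passed, against 0.308% of probe sets. At an unadjusted p below 0.05 stood 2 of 8 genes and 2791 of all probe sets. The 2 genes were Mthfd2, at 0.42±0.14 (limma adjusted p = 0.303), and Phgdh, at 0.50±0.22 (limma adjusted p = 0.469). For Asns the difference was 0.04±0.13 (95% interval -0.23 to 0.31). After adjustment the methods' t-test passed 0 of 8 in these 4 comparisons. Of all probe sets it passed only 13 in PBM against control and 0 in each of the others. It therefore could not tell the 8 genes from the rest, and nor could limma's counts, with so few of all probe sets passing.

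Whether the response to light itself changed with pretreatment was tested as an interaction. For PBM, 0 of 8 genes passed in limma, against 0.00685% of probe sets. At an unadjusted p below 0.05 stood 0 of 8 genes and 1244 of all probe sets. For saffron, 0 of 8 passed, against 0.14% of probe sets. At an unadjusted p below 0.05 stood 1 of 8 genes and 1707 of all probe sets. The 1 gene was Mthfd2, whose light response was larger by 0.52±0.20 in saffron-fed retinas (95% interval 0.10 to 0.94, limma adjusted p = 0.757). For Asns the interaction was -0.02±0.18 with PBM (-0.40 to 0.37) and -0.04±0.18 with saffron (-0.42 to 0.35). For Aldh18a1 it was -0.28±0.21 with PBM, where the array PBMLD 2 weighs (-0.09 without it), and 0.15±0.21 with saffron. The t-test of the methods, carried over to the 4 groups of each interaction, passed 0 of 8. Of all probe sets it passed only 1 for PBM and 0 for saffron, so it could not tell these genes from the rest. The counts from limma could not either, because so few of all probe sets passed there.

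Light-exposed retinas did not all respond alike, and Asns varied less between them than most entities that rose. For the 110 probe sets that passed as more than 2-fold higher in the pooled comparison, the median rise over the control mean was 2.01 on LD 2 and LD 3 but 1.27 on LD 1 and 0.575 on PBMLD 1. The rise of Asns on the same arrays was 1.81, 1.91, 2.00 and 1.94. The range of Asns over the 9 light-exposed arrays was 0.39, or 0.209 of its rise, which was the smallest ratio of the 110, whose median was 1.21. Mthfd2 came 8th (0.480) and Aldh18a1 28th (0.731). The 110 were chosen on the same contrast, where a small spread for its rise also gives a gene a small p. The ratios are thus no separate result from the p of Asns and Mthfd2. They describe the arrays and were not tested.

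**Figure D3:**
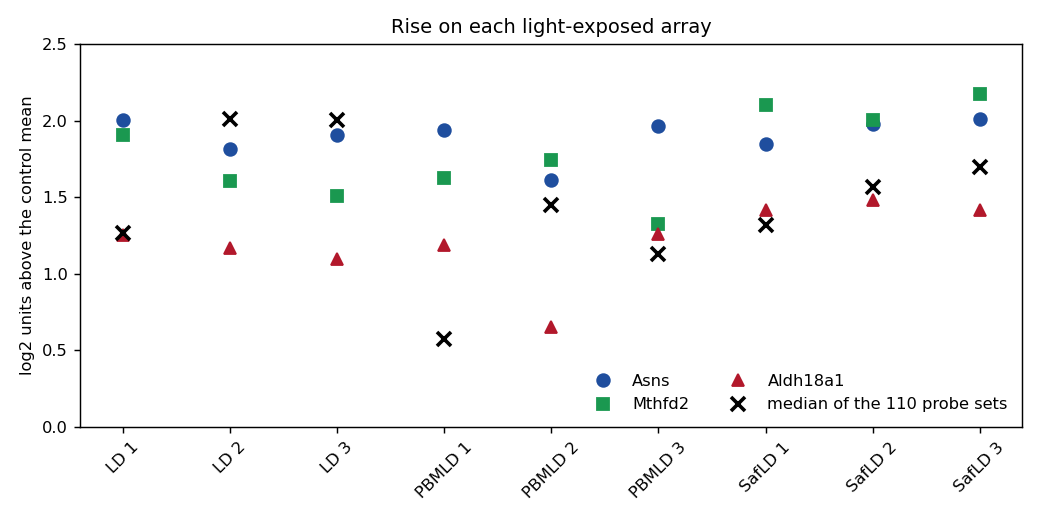
Rise above the control mean, in log2 units, on each of the 9 light-exposed arrays for Asns, Mthfd2 and Aldh18a1, with the median of the 110 probe sets that were more than 2-fold higher in the pooled comparison as crosses. The crosses run from 0.575 on PBMLD 1 to 2.01 on LD 2, while Asns stays between 1.61 and 2.01.

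The genes whose values over the 18 arrays, each centred on its control mean, lay closest to Asns were Jun, at a root mean square difference of 0.242 log2 units, Mthfd2 (0.279), Stat3 (0.292), Ahr (0.319) and Litaf (0.323). Closest to Mthfd2 were Asns (0.279), Tnip2 (0.282), Trib3 (0.304), Jun (0.306) and Gdf15 (0.317). Jun is a subunit of AP-1, Stat3 a mediator of gp130 signalling, and Trib3 and Gdf15 known stress-response genes. Closest to Phgdh were Ackr3 (0.202), Akr1c19 (0.203), Sdr16c5 (0.231), Gulp1 (0.232) and Frzb (0.241).

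None of the 5 isoenzymes read for these steps passed as higher in the pooled comparison. Of all probe sets, 2.83% passed there as higher and 2% as lower, so few of any 5 genes would pass. Shmt1, the cytosolic partner of Shmt2, differed by -0.09±0.07 in the pooled comparison (limma adjusted p = 0.631, 95% interval -0.23 to 0.06), but its probe set was dim, at 4.04 to 4.57 on all arrays. Mthfd2l, the closest relative of Mthfd2, differed by -0.10±0.13 (limma adjusted p = 0.787, -0.37 to 0.17). Mthfd1, the cytosolic enzyme, differed by 0.06±0.10 (-0.14 to 0.27) and Mthfd1l, which releases mitochondrial formate, by -0.06±0.08 (-0.23 to 0.11). Pycrl, now named Pycr3, was lower by a log2 difference of -0.30±0.08 (limma adjusted p = 0.0270), opposite in sign to Pycr1. The differences between isoenzymes were not themselves tested.

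**Figure D4:**
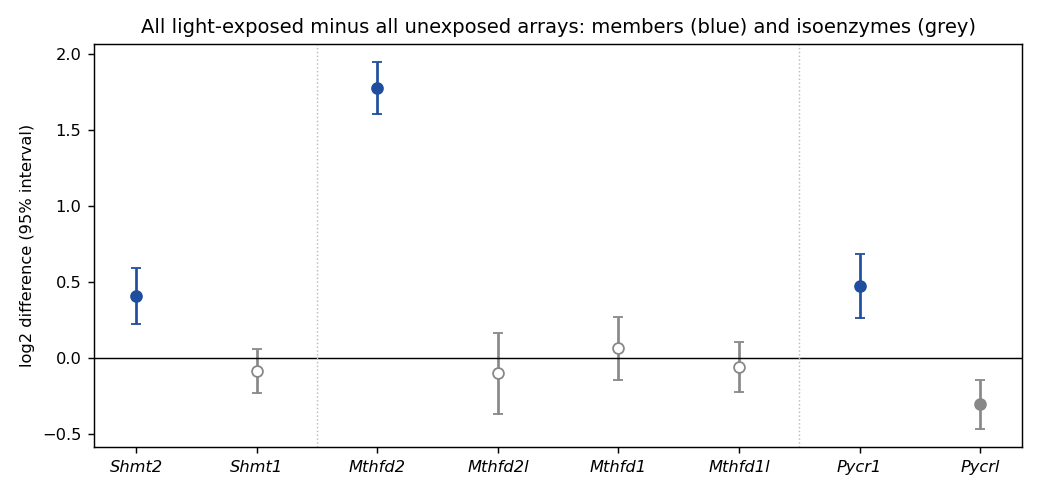
Log2 difference between all light-exposed and all unexposed arrays, with 95% intervals, for Shmt2, Mthfd2 and Pycr1 (blue) and for their isoenzymes (grey), parted by dotted lines; filled points have an adjusted p below 0.05. Mthfd2 lies at 1.77 while Mthfd2l, Mthfd1 and Mthfd1l lie between -0.10 and 0.06, and Pycrl lies at -0.30.

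The neighbouring pathways were described by gene lists in the same pooled comparison. Each list below stands beside 2.83% of all probe sets that passed there as higher and 2% as lower. Of 16 measured genes of one-carbon and folate metabolism, 2 passed, both higher: Slc25a32, the mitochondrial folate carrier, by 0.44±0.11 (limma adjusted p = 0.0262), and Mtr, methionine synthase, by 0.38±0.09 (limma adjusted p = 0.0236). The list had a median near 0. Of 14 genes that use serine and glycine, 1 was higher, Gldc of the glycine cleavage system (0.51±0.12), and 1 lower, Cth of cysteine synthesis (-0.52±0.10), with a median of -0.06. Of 9 purine synthesis genes 2 were higher, Pfas (0.38±0.09) and Ppat (0.26±0.07), with a median of 0.19.

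Among 12 further genes of glutamate, aspartate and proline metabolism, 2 were higher and 4 lower, with a median of -0.12. Gpt2, the mitochondrial alanine aminotransferase, was higher by 0.79±0.10 (1.73-fold, limma adjusted p = 7.0e-05). Got1, the cytosolic enzyme that interconverts aspartate and glutamate, was lower (-0.51±0.08, limma adjusted p = 4.3e-04), as was Oat, which links ornithine to proline (-0.36±0.08). Of 15 glycolytic genes, 6 were lower and 0 higher, with a median of -0.29. Hk2, the hexokinase of photoreceptors, was lower by a log2 difference of -1.24±0.23 (limma adjusted p = 0.00373), Pfkl by -0.53±0.12 and Pkm by -0.43±0.08.

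Of 15 regulators of the ATF4 pathway, 8 were higher and 0 lower, with a median of 0.35. Trib3, a pseudokinase induced by ATF4, was higher by 1.47±0.10 (2.77-fold, limma adjusted p = 5.5e-08), Cebpg by 0.73±0.10 and Cebpb by 0.65±0.12, both of them C/EBP factors. Atf4 itself, named after its value was seen, was higher by 0.35 (limma adjusted p = 0.0119). In LD against control alone, 1 of the 15 passed, Trib3 at 1.43 (limma adjusted p = 1.8e-04), against 0.839% of probe sets higher. These lists were assembled with the results of these arrays known.

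Cell type markers were read for the same arrays and the same pooled comparison, with 2.83% of all probe sets higher and 2% lower. The rod genes stood high throughout, with a mean of 12.73 to 12.91 over 7 genes on unexposed arrays, and 12.21 to 12.71 on light-exposed arrays; 3 of 7 passed as lower, Nrl (-0.82), Rcvrn (-0.60) and Gnat1 (-0.49), and 0 as higher. The 7 Müller glial genes had a mean of 10.35 to 10.79 on unexposed and 10.26 to 10.78 on light-exposed arrays, with 1 of 7 lower (Car2 at -0.27) and 0 higher. Of 3 genes of astrocytes and reactive glia, Gfap (2.69) and Cd44 (0.72) were higher, and their mean ran from 7.29 to 7.89 and from 8.08 to 9.14. Of 6 microglial genes 0 passed, with means of 5.23 to 5.56 and 5.20 to 5.86. The part of these shifts in the values of the 8 genes was not tested.

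Of 9 lens genes 0 passed, and their mean ranged from 8.52 to 10.22 on unexposed and from 8.58 to 11.03 on light-exposed arrays. It was 11.03, 8.58 and 10.88 on the LD arrays, where Asns stood at 10.23, 10.05 and 10.14 and Mthfd2 at 9.03, 8.73 and 8.63. Of 5 pigment epithelial genes 0 passed, but their mean ran from 6.13 to 6.98 on LD arrays, against 5.02 to 6.24 on unexposed, 5.05 to 5.84 on SafLD and 4.76 to 6.68 on PBMLD arrays, and their median difference was 0.93 in LD against control and 0.56 in the pooled comparison. Of 2 blood genes 0 passed, with means of 6.099 to 7.06 on unexposed and 5.99 to 7.43 on light-exposed arrays. The part of lens, pigment epithelial and blood signal in the values of the 8 genes was not tested.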

How the data were processed

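Retinal RNA of 18 arrays, 3 in each of 6 groups named by the sample titles, was analysed from the deposited table of log2 intensities for 29214 probe sets. The authors scanned the arrays and computed these log2 values by RMA, with Expression Console version 1.1.2800.19935 according to the submitters' processing notes. Depth does not apply to arrays, and 3 arrays a group limit the precision. Differences were tested with limma 3.58.1 and statmod 1.5.0 in R 4.3.3, as 12 comparisons in 1 fit of all arrays with 12 residual degrees of freedom, two-sided, with Benjamini-Hochberg adjustment. Each array held the retina of a different animal, so that p-values measure the spread between animals. Probe sets were named from the platform annotation, where 15310 had 1 symbol, 323 several and 13581 none. All 8 genes were named in every comparison, with at most 3 genes of each list, those of largest pooled difference among the passing. The members and lists were chosen with earlier results of these data known. Alternatives were the methods' t-test, a 2-fold limit, smaller fits, array weights, other normalizations, a filter on dim probe sets, probe set averaging, a replicate block and omission of each array. The fit was tested on simulated data. The sources used here do not name a genome build for the probe sets.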

Additional observations from a re-analysis of the deposited data

How the results depend on the processing

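No difference that passed changed its sign under the 29 alternatives, and the number of genes passing moved by more than 1.5 times in 5 cases. The methods' t-test, adjusted over all probe sets, passed 0 genes in place of 3 in LD against control, 0 in place of 3 in PBMLD against control, 0 in place of 3 in PBMLD against PBM and 0 in place of 3 in SafLD against saffron, where each test rests on 6 arrays. In each of these comparisons the adjusted t-test passed 0 of all probe sets, so it could not tell these genes from the rest. At the study's own limits with no adjustment the t-test passed 3, 3, 2 and 3 genes. The share of all probe sets passing at those limits was not read beside these counts. An added limit of 2-fold left 3 of the 6 genes in the pooled comparison. With any 1 array left out, 5 to 6 genes passed in the pooled comparison and 2 to 4 in PBMLD against PBM, and no count of the other 10 comparisons changed. Whichever array was left out, Asns and Mthfd2 passed in the pooled comparison and in the 5 comparisons of a light-exposed with an unexposed group. Fitted on the compared groups alone, Aldh18a1 no longer passed in PBMLD against control (adjusted p = 0.0841) or PBMLD against PBM (adjusted p = 0.260). With array weights Shmt2 passed in LD against control (0.0433) and Pycr1 in PBMLD against PBM (0.0376), as did Pycr1 there without PBMLD 1 (0.0406). Of the 75 differences that did not pass, 31 changed sign under some alternative, the largest being 0.66 in size (Psat1, PBMLD against control, which rests on PBMLD 2: 0.07 without it).

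Whether the replicate numbers in the titles pair the arrays could not be told. Of 45 pairs of same-numbered arrays, 10 had deviations from their group means correlated above 0.1, with a range of -0.39 to 0.31. Pairs of unlike number were not read beside them. With the replicate number as a block, Phgdh in the pooled comparison reached an adjusted p of 0.0503, and no other call changed.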
